A study of Mus musculus with 15 samples.

Results

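The genes described here encode the nuclear subunits of respiratory complexes II, III and IV and of the ATP synthase, complex V. Members were the rows named Sdha, Sdhb, Sdhc, Sdhd or Cyc1, or with a symbol starting with Uqcr, Cox4, Cox5, Cox6, Cox7, Cox8 or Atp5, without -ps in the symbol and with a mean of at least 1 CPM (counts scaled to the library's total) over the 15 libraries. This gave 44 genes of 22798 in the table, of which 4 belong to complex II, 9 to complex III, 16 to complex IV and 15 to complex V. Of the 49 rows in these families, 4 were left out as -ps rows and 1, Cox6b2, fell below the minimum at 0.193 CPM, while the lowest member was Cox4i2 at 1.24 CPM. All 44 passed the filter on low counts. Cox6c2 is annotated as a processed pseudogene, and its reads may be shared with Cox6c.

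The libraries are bulk RNA-seq of mouse skeletal muscle, from C57BL/6 animals aged 12 months that were starved overnight and kept on a normal diet. They fall into 3 groups: 3 libraries labelled CD47-KO, 6 from exercise mice and 6 from sedentary mice that the design text calls WT. The labels and design text do not say which muscle was sampled, how the mice were exercised, how the CD47 allele was made or which genotype the exercise mice had. Nothing in the labels ties each library to an animal of its own, so p-values here reflect the spread between these libraries, which may be technical. The series' title concerns CD47 blockade, exercise and the energetics of muscle mitochondria, and each subunit was compared between CD47-KO and sedentary, CD47-KO and exercise, and exercise and sedentary muscle. These comparisons share libraries pairwise, so their results are not independent of each other.

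Complex II oxidises succinate to fumarate and passes the electrons to ubiquinone, complex III passes them on to cytochrome c, and complex IV reduces oxygen with them. Complexes III and IV pump protons across the inner mitochondrial membrane, and complex V lets protons back through a ring of c subunits to make ATP. All subunits of complex II are encoded in the nucleus, while complexes III, IV and V combine nuclear subunits with a few encoded by mitochondrial DNA. Muscle is rich in these complexes, slow and fast oxidative fibres more so than fast glycolytic ones, and muscle uses tissue-specific isoforms of several complex IV subunits.

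Total counts were 76005277 to 84364189 in the CD47-KO libraries, 54851831 to 77628546 in the exercise libraries and 50928458 to 70774311 in the sedentary libraries. Cd47 itself, the gene named by the KO label, was at 11.5, 12.1 and 12.1 CPM in the CD47-KO libraries, against 11.4 to 16.4 CPM in sedentary libraries, and did not pass the edgeR quasi-likelihood test as fitted (log2 fold change -0.26 ± 0.17 SE, adjusted p = 0.295). With a correction for transcript GC content, the log2 fold change of Cd47 was -1.21 ± 0.22 (SE, edgeR, adjusted p = 0.00275), while it was called in none of DESeq2 (-0.24), limma-voom (-0.25), the replicate block (-0.16) and the fits on title numbers 1 to 3 (-0.16) or 4 to 6 (-0.24). The same correction moved genes such as Sdhaf3, an assembly factor, to a log2 fold change of -0.96, against 0.20 without it, so the check of the label is not settled and the group is called by its label throughout. Whether the deleted part of the gene produces these reads cannot be read from gene counts. The 6 mature fibre markers listed summed to 95359 to 135535 CPM in CD47-KO libraries, 137660 to 246829 CPM in exercise libraries and 117758 to 217540 CPM in sedentary libraries, with no overlap between CD47-KO and exercise libraries. The 8 slow-fibre markers summed to 1044 to 7928 CPM in CD47-KO, 87.6 to 4507 CPM in exercise and 1440 to 24428 CPM in sedentary libraries. The fast myosin genes Myh2 and Myh1 summed to 4837 to 8936, 3029 to 11649 and 2141 to 9032 CPM in the same groups. The 3 fast glycolytic markers (Myh4, Pvalb and Actn3) summed to 47523 to 76804, 59058 to 145517 and 51724 to 122328 CPM. These ranges overlapped between all groups. Myh2 and Myh1 do not mark the same fast fibre type. Myh1 was at 3678 to 4818 CPM in CD47-KO, 2377 to 7387 CPM in exercise and 1232 to 2925 CPM in sedentary libraries. CD47-KO and sedentary libraries did not overlap for Myh1 (log2 fold change 1.00 ± 0.34 SE, edgeR, adjusted p = 0.0506), while for Myh2 all groups overlapped. Actn3 was called lower against sedentary (log2 fold change -0.99 ± 0.31 SE, edgeR, adjusted p = 0.0325), while Myh4 and Pvalb were not called. The 3 erythroid markers summed to 126 to 192 CPM in CD47-KO, 181 to 789 CPM in exercise and 139 to 537 CPM in sedentary libraries. The part of these differences in the results below was not tested. The share of counts from mitochondrial DNA was 18.1 to 19.2% in CD47-KO libraries, 4.49 to 12.5% in exercise libraries and 4.77 to 18.2% in sedentary libraries, the last value being sedentary library 6. In bulk tissue, fewer fibres of a type and less RNA per fibre cannot be told apart.

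Sedentary library 6 stood apart from the other 5 sedentary libraries. It lay above all 5 in 35 of the 44 members, below all 5 in 3 members (Sdha, Uqcrc2 and Atp5b) and within their range in 6. The members of complex IV summed to 8156 CPM in this library, against 2379 to 3626 CPM in the other sedentary libraries. The excess was larger for short transcripts (Spearman rho = -0.52 between the log2 ratio of sedentary 6 to the median of the other 5 and transcript length, across the 44 genes of 1 library set, as a description). Results that rest on the sedentary group are therefore given with and without it. A second pattern followed the numbers in the sample titles: the 44 members summed to 20034 to 22306 CPM in exercise libraries 4 to 6 and 12276 to 16265 CPM in exercise libraries 1 to 3, and to 14946 to 24590 CPM in sedentary libraries 4 to 6 and 11977 to 14196 CPM in sedentary libraries 1 to 3. The labels name no batch for these numbers.

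**Figure D1:**
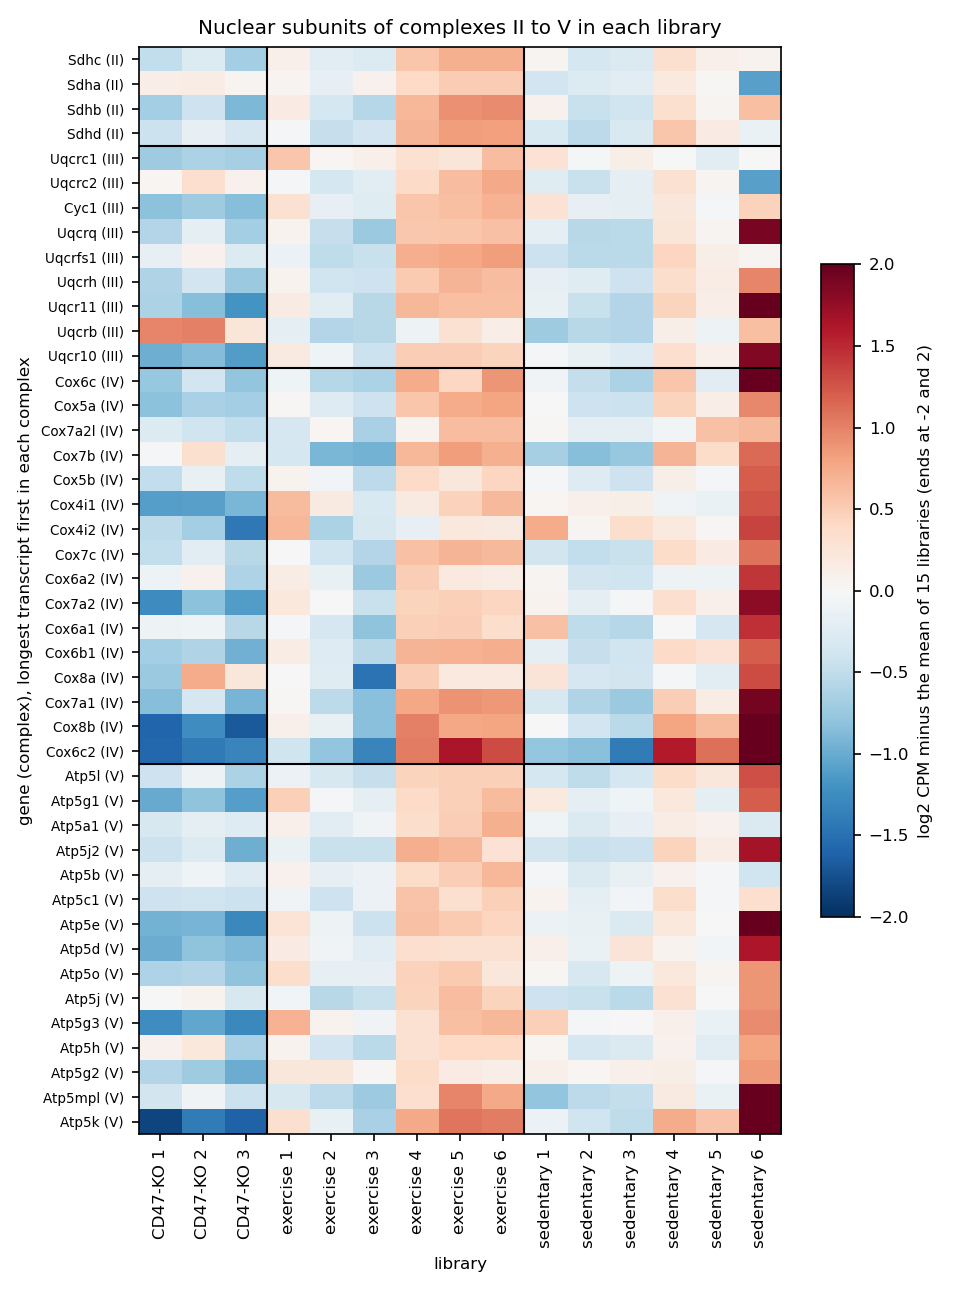
Log2 CPM of each of the 44 members in each library, minus the gene's mean over the 15 libraries, with libraries in columns (CD47-KO, exercise, sedentary) and genes in rows by complex, the longest transcript first. The CD47-KO columns are mostly blue, with Uqcrb among the exceptions, and sedentary library 6 is red for 35 members that lie above all other sedentary libraries.

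Per kilobase of exon, Cox6a2, the muscle form of subunit 6A of complex IV, had the highest median in each group, at 1025 CPM per kb in CD47-KO, 1227 in exercise and 1030 in sedentary libraries. Atp5a1 and Atp5b, the alpha and beta subunits that form the catalytic head, had medians of 510 and 482 CPM per kb in CD47-KO, 716 and 642 in exercise and 560 and 511 in sedentary libraries. Exon length here joins the exons of all transcripts of a gene. It was 4237 bases for Atp5b, whose longest transcript has 1916, and 680 bases for Cox6a2 by either length. The order of these genes therefore depends on the length used. The complex II genes lay lower, with sedentary medians between 76.5 CPM per kb for Sdhc and 157 CPM per kb for Sdha. Cox4i2, the form of subunit 4 known from lung and low oxygen, was the least abundant, with medians of 0.887, 1.44 and 1.73 CPM per kb in CD47-KO, exercise and sedentary libraries.

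In exercise against sedentary muscle, none of the 44 subunit genes passed the threshold. With p-values from edgeR adjusted over all genes, 0 members were called, where the share of all 17975 genes called was 0.00% in each direction. DESeq2 and limma-voom called 0 members too. An unadjusted p under 0.05 was found for 2 members in edgeR (Sdha and Atp5b), against 3.70% of all genes, for 4 members in DESeq2 and for 1 in limma-voom. The median log2 fold change over the members was -0.00, with 22 genes above 0 and 22 below, beside a median of -0.03 over all genes tested. No member had exercise and sedentary libraries that did not overlap, against 0.100% of all genes higher and 0.0612% lower.

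Complex II was the one complex in which all members lay above 0 in that comparison, with a median log2 fold change of 0.36 over its 4 genes, beside 0.06 for complex III, -0.15 for complex IV and 0.02 for complex V. Sdha, the flavoprotein that binds succinate, had 682, 915 and 1091 CPM (lowest, median and highest) in exercise libraries, against 361, 649 and 876 CPM in sedentary libraries. The groups overlapped, and the lowest sedentary value came from library 6. The log2 fold change of Sdha was 0.49 ± 0.20 (SE, edgeR, adjusted p = 1). Sdhb, the iron-sulphur subunit, had 213, 427 and 605 CPM in exercise libraries, against 231, 332 and 480 CPM in sedentary libraries. Sdhc and Sdhd anchor the complex in the membrane, and had log2 fold changes of 0.32 ± 0.20 and 0.39 ± 0.26 (SE). The summed complex II level was higher in the exercise library of 6 of 6 pairs with the same title number. The summed level was higher in 4 of 6 such pairs for complexes III and IV and in 5 of 6 for complex V. Nothing in the labels says that a shared title number marks a pair, and the complex II count depends on the matching. Exercise library 2 summed to 1263 CPM for complex II, below sedentary library 1 at 1317 CPM. Without sedentary library 6, all members of complexes III and V lay above 0 as well. In each complex II gene the exercise libraries 4 to 6 were higher than the exercise libraries 1 to 3.

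In the other complexes, the gene with the smallest p was Uqcrc1 for complex III, Cox4i2 for complex IV and Atp5b for complex V. Uqcrc1, a core subunit of complex III, had 774, 912 and 1159 CPM in exercise libraries, against 652, 755 and 920 CPM in sedentary libraries (log2 fold change 0.29 ± 0.15 SE, edgeR, adjusted p = 1). Cox4i2 had 0.725, 1.14 and 1.78 CPM in exercise libraries, against 1.14, 1.36 and 2.86 CPM in sedentary libraries, and was the member named here whose value lay below 0 (log2 fold change -0.48 ± 0.30 SE, edgeR, adjusted p = 1). Atp5b had 2049, 2718 and 3669 CPM in exercise libraries, against 1750, 2167 and 2446 CPM in sedentary libraries (log2 fold change 0.38 ± 0.18 SE, edgeR, adjusted p = 1). All 3 genes had overlapping groups.

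Without sedentary library 6, 43 of the 44 members lay above 0 in exercise against sedentary muscle, with a median log2 fold change of 0.29 beside -0.03 over all genes, and 0 were called in edgeR. The exception was Cox4i2. Within title numbers 1 to 3, 33 members lay above 0 with a median of 0.06, and within title numbers 4 to 6, 19 lay above 0 with a median of -0.05. How many members lay above 0 thus changed with 1 library. The replicate block by title number called 0 members as well.

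**Figure D2:**
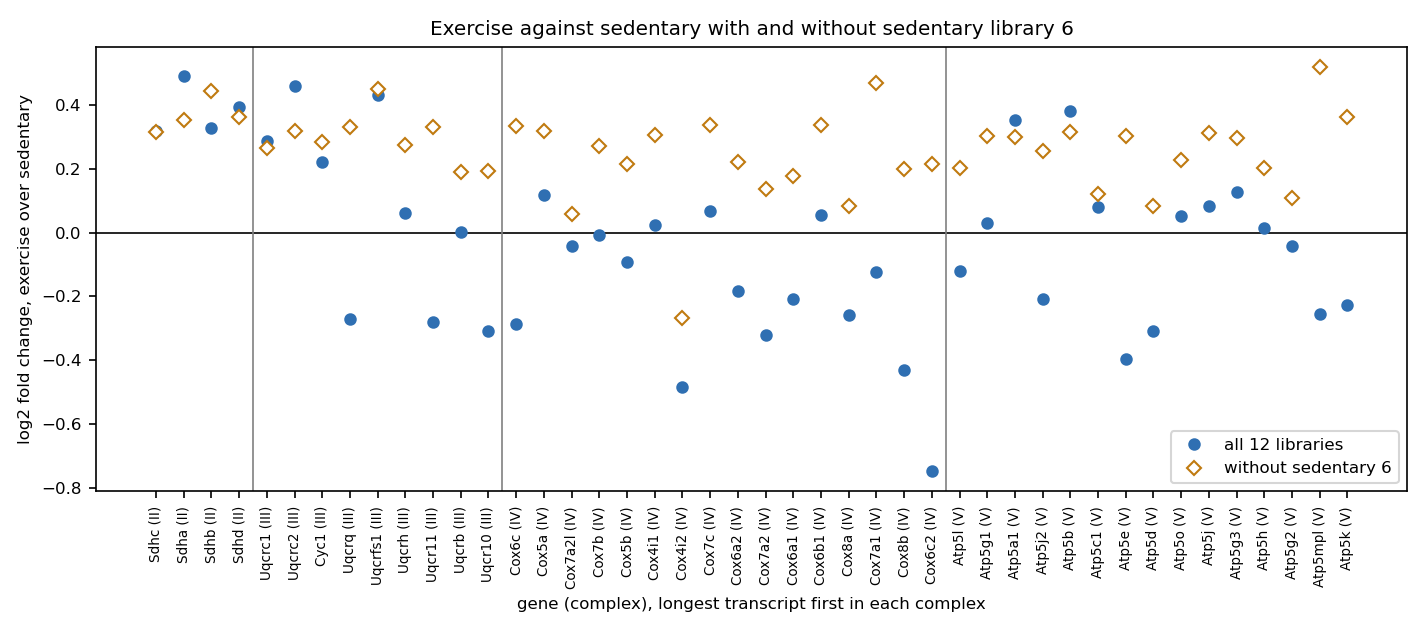
Log2 fold change of exercise over sedentary for each member, by complex and with the longest transcript first, from all 12 libraries of these groups (filled circles) and without sedentary library 6 (open diamonds). With all libraries 22 genes lie above 0 and 22 below, and without sedentary 6 all but Cox4i2 lie above 0.

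In the libraries labelled CD47-KO, many of these genes were lower than in sedentary muscle. In edgeR, 14 of the 44 members were called lower, against 8.75% of all genes tested, and 1, Uqcrb, was called higher, against 11.9% of all genes. Of the members, 41 lay below 0, and the median log2 fold change was -0.76 beside -0.11 over all genes. In 19 members every CD47-KO library lay below every sedentary library, against 10.3% of all genes, and in 0 members above, against 15.7%. The called genes numbered 0 of 4 in complex II, 3 of 9 in complex III, 4 of 16 in complex IV and 7 of 15 in complex V. Without sedentary library 6 the same 14 genes were called lower, against 7.62% of all genes, and the same gene higher, against 14.1%, with a median of -0.42 and 34 members below 0. The mitochondrial share given above moves with this group, and its part in the result was not tested.

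Against exercise muscle, 14 members were called lower in CD47-KO, against 8.34% of all genes, and Uqcrb was again called higher, against 12.2% of all genes. The median log2 fold change of the members was -0.81 beside -0.08 over all genes, and 42 of 44 lay below 0. In 16 members every CD47-KO library lay below every exercise library, against 14.1% of all genes. By complex, 2 of 4 were lower in complex II, 2 of 9 in complex III, 4 of 16 in complex IV and 6 of 15 in complex V. Without sedentary library 6, which shares the fit, 17 were lower, against 9.53% of all genes, of which 13 were among the 14, and 1 was higher, against 16.0%. The calls depended on single libraries. Without CD47-KO library 1, 2 or 3, the number lower was 3, 10 or 4 against sedentary, where 3.47, 4.30 and 3.23% of all genes were lower, and 6, 7 or 5 against exercise, where 3.56, 4.0 and 3.39% of all genes were lower. Without exercise library 4, 5 or 6, the number lower against exercise was 7, 7 or 8, and 5.56, 6.18 and 5.66% of all genes were lower. Calls over all genes thus fell in these fits as well.

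Against sedentary muscle, complex II had the median closest to 0 of the 4 complexes, at -0.36 on the log2 scale, and against exercise its median was -0.72, beside -0.82, -0.88 and -0.72 for complexes III, IV and V. Sdha was at 844, 855 and 801 CPM in CD47-KO libraries, which lay within the ranges of the exercise and sedentary libraries given above. Its log2 fold change was 0.36 ± 0.24 (SE) against sedentary (edgeR, adjusted p = 0.334) and -0.14 ± 0.25 against exercise (adjusted p = 0.752). Sdhb was at 198, 236 and 169 CPM in CD47-KO libraries, with a log2 fold change of -0.74 ± 0.34 against sedentary (edgeR, adjusted p = 0.141) and -1.06 ± 0.35 against exercise (adjusted p = 0.0391). Sdhc was at 170, 197 and 149 CPM in CD47-KO libraries, against 197, 304 and 390 CPM in exercise libraries and 187, 249 and 297 CPM in sedentary libraries. Its CD47-KO and exercise ranges met at 1 pair of libraries, and it passed the test against exercise (log2 fold change -0.79 ± 0.26 SE, edgeR, adjusted p = 0.0384) but had an adjusted p of 0.0538 there when sedentary library 6, which shares the fit, was left out. Sdhd was at 134, 161 and 142 CPM in CD47-KO libraries, against 130, 231 and 320 CPM in exercise and 125, 154 and 264 CPM in sedentary libraries, and passed neither test.

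In complex III, Uqcrc1 and Cyc1 were lower in CD47-KO libraries against both other groups, and the small subunit Uqcrb was higher. Uqcrc1 was at 461, 491 and 477 CPM in CD47-KO libraries, all below the lowest exercise library (774 CPM) and the lowest sedentary library (652 CPM). Its log2 fold change was -0.70 ± 0.19 (SE) against sedentary (edgeR, adjusted p = 0.0142) and -0.99 ± 0.19 against exercise (adjusted p = 0.0016). Cyc1 encodes cytochrome c1, the haem protein that hands electrons to cytochrome c. It was at 174, 189 and 171 CPM in CD47-KO libraries, against 261, 416 and 500 CPM in exercise libraries and 271, 331 and 422 CPM in sedentary libraries. The groups did not overlap (log2 fold change -0.91 ± 0.24 SE against sedentary, edgeR, adjusted p = 0.0137, and -1.13 ± 0.24 against exercise, adjusted p = 0.00353). Uqcr10, a small accessory subunit, was also lower against sedentary muscle (log2 fold change -1.51 ± 0.43 SE, edgeR, adjusted p = 0.0193), at 89.2, 95.7 and 80.2 CPM in CD47-KO libraries, against 147, 179 and 631 CPM in sedentary libraries.

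Uqcrb, which binds near the ubiquinone site of complex III, was at 351, 359 and 211 CPM in CD47-KO libraries, against 119, 162 and 220 CPM in exercise libraries and 109, 144 and 269 CPM in sedentary libraries. The third CD47-KO library lay inside the range of both other groups. The log2 fold change was 0.91 ± 0.29 (SE) against sedentary (edgeR, adjusted p = 0.0348) and 0.91 ± 0.29 against exercise (adjusted p = 0.0351). Its transcript has the lowest GC content of complex III, at 40.4%, and with the correction for GC content its log2 fold change was -0.21 and -0.23 in these comparisons. Uqcrc2, the other core subunit, was at 381, 466 and 393 CPM in CD47-KO libraries, against 289, 423 and 628 CPM in exercise and 174, 319 and 457 CPM in sedentary libraries, and passed neither test. Uqcrfs1, the Rieske iron-sulphur protein, had log2 fold changes of -0.00 ± 0.33 and -0.44 ± 0.33 (SE) against sedentary and exercise muscle. Uqcrc2 shares 19.8% of its exon bases with Pdzd9 on the opposite strand. Reads of the 2 genes cannot be separated there unless the counting used strand, which the sources used here leave unstated. Pdzd9 had a mean of 0.223 CPM over the libraries, beside 394 CPM for Uqcrc2 (both scaled to library totals).

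**Figure D3:**
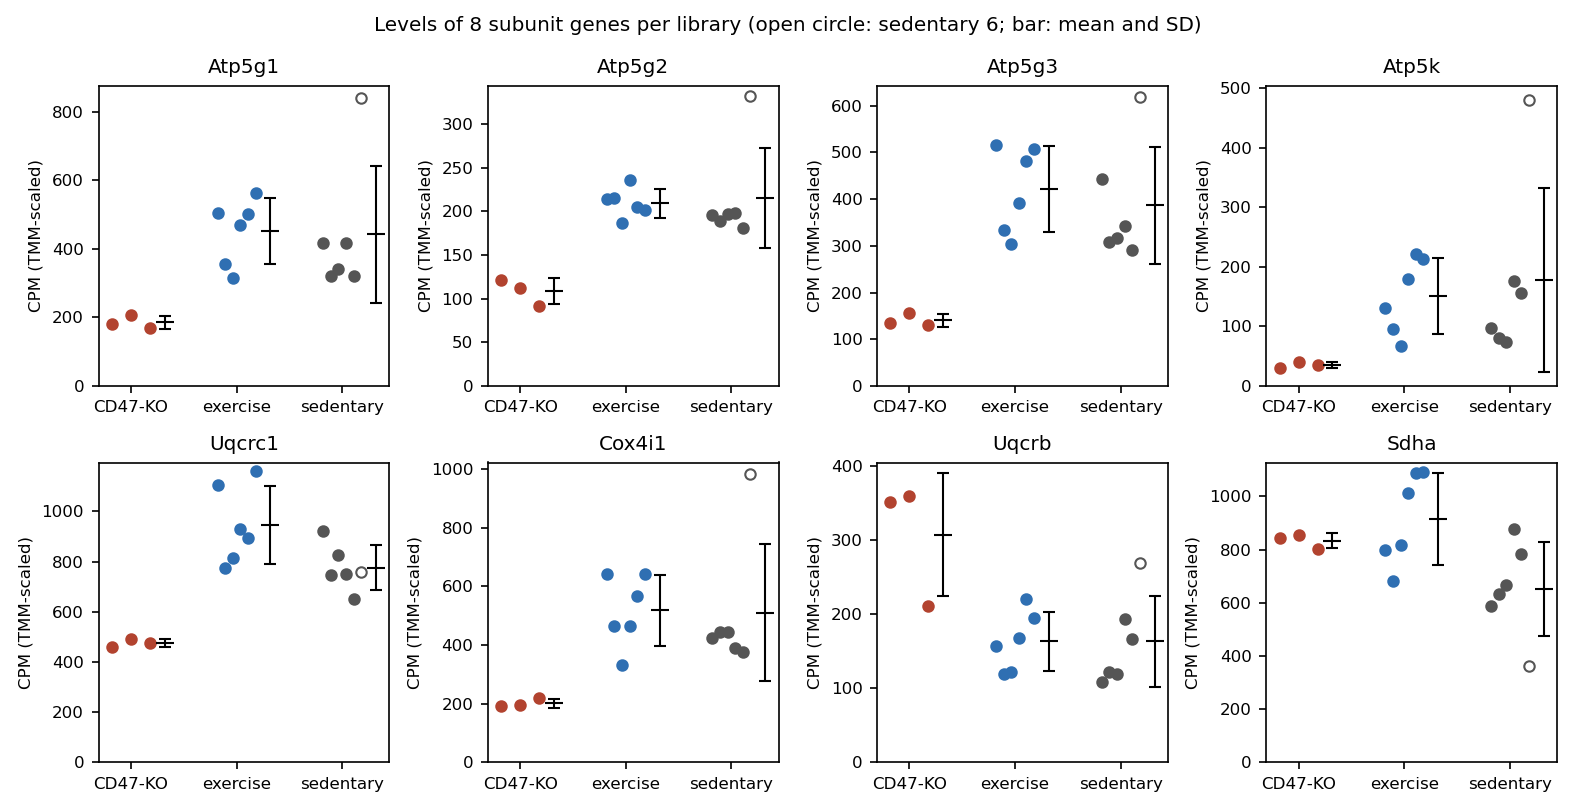
CPM (TMM-scaled, axis from 0) of 8 members in each library of the CD47-KO, exercise and sedentary groups, with the mean and SD of each group as a bar and sedentary library 6 as an open circle. Atp5g1, Atp5g2, Atp5g3, Atp5k, Uqcrc1 and Cox4i1 show CD47-KO libraries below all libraries of the other groups, Uqcrb shows 2 of 3 above, and Sdha shows overlapping groups.

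In complex IV, all 16 members lay below 0 in CD47-KO against sedentary muscle, with a median log2 fold change of -0.96, and 4 were called. Cox4i1, the common form of subunit 4, was at 192, 194 and 219 CPM in CD47-KO libraries, against 333, 515 and 643 CPM in exercise libraries and 375, 434 and 982 CPM in sedentary libraries. The groups did not overlap (log2 fold change -1.34 ± 0.32 SE against sedentary, edgeR, adjusted p = 0.00685, and -1.36 ± 0.32 against exercise, adjusted p = 0.00573). Cox4i2 was at 0.778, 0.699 and 0.418 CPM in CD47-KO libraries and was lower against sedentary (log2 fold change -1.36 ± 0.40 SE, edgeR, adjusted p = 0.023) but did not pass against exercise (-0.88 ± 0.39, adjusted p = 0.125). Cox7a2, the form of subunit 7A found in most tissues, was at 37.1, 50.3 and 40.7 CPM in CD47-KO libraries, against 65.1, 111 and 123 CPM in exercise libraries and 78, 93.7 and 307 CPM in sedentary libraries, with no overlap. Its log2 fold change was -1.59 ± 0.40 (SE) against sedentary (edgeR, adjusted p = 0.0108) and -1.27 ± 0.40 against exercise (adjusted p = 0.0319). Cox5a, which was chosen after its values were seen, was called lower against exercise alone (log2 fold change -1.03 ± 0.34 SE, edgeR, adjusted p = 0.0421, against -0.92 ± 0.34 and 0.0668 for sedentary).

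Cox8b, the form of subunit 8 used by heart and skeletal muscle in mice, had the largest fall of the called complex IV genes in both comparisons. It was at 55.3, 70.5 and 52.2 CPM in CD47-KO libraries, against 93.3, 231 and 334 CPM in exercise libraries and 115, 212 and 837 CPM in sedentary libraries. No CD47-KO library reached the lowest library of either other group (log2 fold change -2.33 ± 0.61 SE against sedentary, edgeR, adjusted p = 0.0124, -1.61 ± 0.41 without sedentary library 6, and -1.90 ± 0.59 against exercise, adjusted p = 0.0315). Cox8a, its counterpart in most tissues, was at 12.5, 34.8 and 24.3 CPM in CD47-KO libraries, against 7.54, 22.4 and 29.2 CPM in exercise and 16.1, 19.2 and 51.5 CPM in sedentary libraries, and overlapped with both. Cox6a2 and Cox7a1, the other muscle forms, were not called in either comparison. Cox6a2 was at 697, 795 and 491 CPM in CD47-KO libraries, against 449, 834 and 1058 CPM in exercise and 567, 701 and 2018 CPM in sedentary libraries. Cox6c2 had the lowest fold change of all members against sedentary muscle, -2.81 ± 0.99 (SE, edgeR, adjusted p = 0.0546), from 0.766, 0.859 and 0.918 CPM in CD47-KO libraries.

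The balance between paired isoforms was compared as the log2 ratio of their counts within each library, so that scaling between libraries drops out. With 5 pairs and 3 comparisons, 15 two-sided exact permutation tests were run and adjusted together, and 3 libraries against 6 cannot go below p = 0.0119. Cox8b to Cox8a was 1.42 ± 0.63 in CD47-KO, 3.41 ± 0.26 in exercise and 3.37 ± 0.59 in sedentary libraries (mean log2 ratio ± SD, n = 3, 6 and 6). CD47-KO libraries lay below all others, with a difference of -1.95 against sedentary and -1.99 against exercise (each exact permutation p = 0.0119, the smallest possible, adjusted p = 0.0446). With the exercise and sedentary tests of the family paired by title number, the adjusted p was 0.0595. Without sedentary library 6 the difference against sedentary was -1.81, with exact p = 0.0179, again the smallest possible, and adjusted p = 0.0536. The sedentary ratio followed the title numbers, at 2.73 to 2.95 in libraries 1 to 3 and 3.82 to 4.02 in libraries 4 to 6. The size of the difference therefore depends on the set, while the highest CD47-KO library was at 2.14. Cox6a2 to Cox6a1 was 5.71 ± 0.12, 5.66 ± 0.20 and 5.65 ± 0.28 in CD47-KO, exercise and sedentary libraries, with differences of at most 0.06 on the log2 scale (lowest exact permutation p = 0.762).

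Cox7a1 to Cox7a2 was 0.89 ± 0.14 in CD47-KO, 0.55 ± 0.43 in exercise and 0.33 ± 0.36 in sedentary libraries. CD47-KO and sedentary libraries did not overlap, and the difference of 0.56 had an exact permutation p of 0.0238 and an adjusted p of 0.0714. Both other groups followed the title numbers for this pair. Exercise libraries lay at 0.02 to 0.34 for numbers 1 to 3 and 0.86 to 0.96 for 4 to 6. Sedentary libraries lay at -0.19 to 0.13 and 0.58 to 0.69 for the same numbers, and CD47-KO libraries at 0.73 to 1.00. The size of the difference therefore depends on the set. Cox4i2 to Cox4i1 was the one pair to pass between exercise and sedentary muscle when libraries were taken as unpaired, at -8.82 ± 0.30 in exercise and -8.27 ± 0.25 in sedentary libraries (SD, n = 6 each), a difference of -0.54 (exact permutation p = 0.0065, adjusted p = 0.0446). Paired by title number, which may not mark true pairs, exercise was lower in 6 of 6 pairs. The exact sign-flip permutation p was 0.0312, the smallest 6 pairs allow, and the adjusted p was 0.0938. The groups overlapped, and without sedentary library 6 the difference was -0.57 with an adjusted p of 0.0536. Cox4i2 has about 1 CPM, so this ratio rests on the fewest reads of the 5 pairs.

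**Figure D4:**
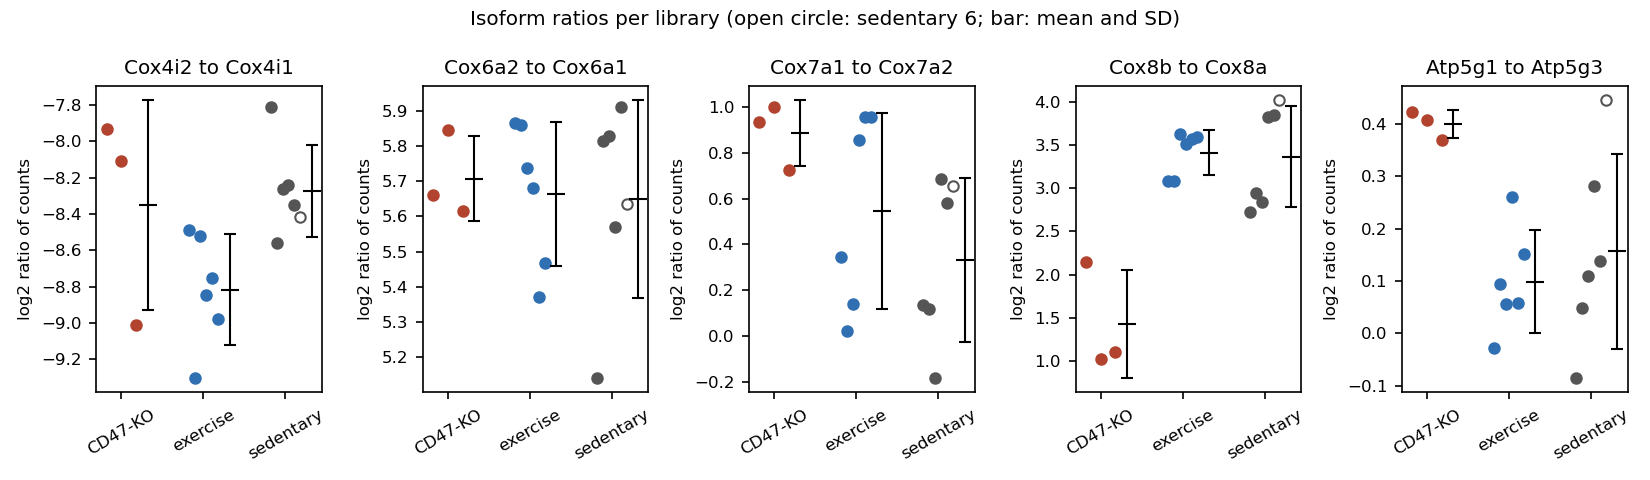
Log2 ratio of counts for 5 isoform pairs in each CD47-KO, exercise and sedentary library, with the mean and SD of each group as a bar and sedentary library 6 as an open circle. For Cox8b to Cox8a the CD47-KO mean is 1.42 and the exercise and sedentary means are 3.41 and 3.37, and for Cox6a2 to Cox6a1 the 3 means lie between 5.65 and 5.71.

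Complex V held the largest number of called genes, and the 3 genes for subunit c were all among them. Atp5g1, Atp5g2 and Atp5g3 encode the same mature subunit c, which forms the rotating ring, with different import sequences. Atp5k encodes subunit e of the membrane part, which holds dimers of the enzyme together, and is shown beside them because it had the lowest fold change of the called genes of complex V. It was chosen after its values were seen. The 250 bases before the RefSeq start of each gene are printed 5′ to 3′ on the gene's strand, on GRCm38.p6, with capitals where a searched motif was found. These starts differ from GENCODE M21, in which the Atp5g2 stretch lies wholly inside the gene and those of Atp5g1 and Atp5k overlap its first bases.
Atp5g1 (chr11:96075632-96075881, minus strand): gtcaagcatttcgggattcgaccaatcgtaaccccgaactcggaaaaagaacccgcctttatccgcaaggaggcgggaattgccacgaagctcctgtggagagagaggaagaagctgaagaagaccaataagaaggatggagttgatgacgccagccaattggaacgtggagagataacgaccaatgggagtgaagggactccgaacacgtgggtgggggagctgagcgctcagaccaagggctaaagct
Atp5g2 (chr15:102671048-102671297, minus strand): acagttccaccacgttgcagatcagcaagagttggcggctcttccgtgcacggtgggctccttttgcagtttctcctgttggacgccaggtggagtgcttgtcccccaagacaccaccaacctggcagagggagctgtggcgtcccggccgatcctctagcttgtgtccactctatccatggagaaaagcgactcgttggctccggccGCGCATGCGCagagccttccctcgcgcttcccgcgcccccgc
Atp5g3 (chr2:73911327-73911576, minus strand): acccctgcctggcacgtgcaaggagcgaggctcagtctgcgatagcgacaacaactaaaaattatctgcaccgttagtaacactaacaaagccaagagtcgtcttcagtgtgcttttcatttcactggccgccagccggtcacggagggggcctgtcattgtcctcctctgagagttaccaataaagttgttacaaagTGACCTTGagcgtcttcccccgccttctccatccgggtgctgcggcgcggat
Atp5k (chr5:108434400-108434649, minus strand): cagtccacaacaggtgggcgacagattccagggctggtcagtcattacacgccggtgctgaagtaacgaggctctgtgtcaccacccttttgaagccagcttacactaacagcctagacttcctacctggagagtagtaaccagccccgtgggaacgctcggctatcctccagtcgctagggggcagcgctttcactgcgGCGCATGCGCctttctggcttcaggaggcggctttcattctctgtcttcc

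The capitals are a match to the NRF1 motif (GCGC, any base, TGCGC) in Atp5g2 and Atp5k, starting at positions -42 and -50 from the RefSeq start, and to the ERR motif CAAGGTCA on the other strand in Atp5g3, starting at position -52. Atp5g1 held none of the 5 motifs searched on both strands. NRF1 and the oestrogen-related receptors are known regulators of mitochondrial genes. The NRF1 motif was in 7 of the 32 members with a promoter entry (21.9%), against 8.33% of 11841 tested genes with an entry. The ERR motif was in 2 members (6.25%, against 1.30% of genes), the ETS motif CCGGAAGT in 3 (9.38%, against 6.03%), the YY1 motif AAGATGGCG in 1 (3.12%, against 1.28%) and the CRE motif TGACGTCA in 1 (3.12%, against 2.79%). None of these strings contains another. The 4 genes printed were all called lower in CD47-KO libraries, and 2 of them share the NRF1 match, 1 has the ERR match and 1 has none. Sdha, Sdhd, Cox6a1, Atp5c1 and Atp5h also hold the NRF1 match and were called in neither CD47-KO comparison as fitted. Uqcrc1 and Cox8b were called lower and hold none of the 5 motifs. A relation between motif and call was not tested. A match to letters does not show binding.

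Atp5g3 was at 135, 156 and 131 CPM in CD47-KO libraries, against 303, 437 and 516 CPM in exercise libraries and 290, 330 and 618 CPM in sedentary libraries. Every CD47-KO library was below every other library (log2 fold change -1.46 ± 0.27 SE against sedentary, edgeR, adjusted p = 0.0014, and -1.59 ± 0.27 against exercise, adjusted p = 0.000703). Atp5g1 was at 181, 206 and 169 CPM in CD47-KO libraries, against 315, 486 and 564 CPM in exercise libraries and 320, 379 and 842 CPM in sedentary libraries. It did not overlap either (log2 fold change -1.26 ± 0.31 SE against sedentary, edgeR, adjusted p = 0.00921, and -1.29 ± 0.31 against exercise, adjusted p = 0.00759). Atp5g2 was at 122, 112 and 92 CPM in CD47-KO libraries, against 186, 209 and 236 CPM in exercise libraries and 181, 197 and 332 CPM in sedentary libraries. The groups did not overlap (log2 fold change -0.99 ± 0.21 SE against sedentary, edgeR, adjusted p = 0.00336, and -0.95 ± 0.21 against exercise, adjusted p = 0.00408), but its transcript has a GC content of 63.4% and it was not called with the GC correction (-0.37, adjusted p = 0.185 against sedentary). Atp5k was at 29.4, 39.8 and 34.3 CPM in CD47-KO libraries, against 67.4, 155 and 222 CPM in exercise libraries and 74.3, 127 and 481 CPM in sedentary libraries, with no overlap (log2 fold change -2.36 ± 0.59 SE against sedentary, edgeR, adjusted p = 0.00936, -1.68 ± 0.40 without sedentary library 6, and -2.13 ± 0.58 against exercise, adjusted p = 0.0148).

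The ratio of Atp5g1 to Atp5g3 was 0.40 ± 0.03 in CD47-KO, 0.10 ± 0.10 in exercise and 0.16 ± 0.19 in sedentary libraries (mean log2 ratio ± SD, n = 3, 6 and 6). CD47-KO libraries lay above all exercise libraries (difference 0.30, exact permutation p = 0.0119, adjusted p = 0.0446, or 0.0536 in the family of tests run without sedentary library 6 and 0.0595 in the family with pairing) but overlapped with sedentary libraries (difference 0.24, exact permutation p = 0.0833, adjusted p = 0.208). The reads of the 3 subunit c genes may be shared where their coding sequences are alike, so the split between them is uncertain.

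The subunits of the catalytic head of complex V were not called. Atp5a1 was at 1526, 1672 and 1599 CPM in CD47-KO libraries, against 1637, 2244 and 3135 CPM in exercise and 1556, 1757 and 2122 CPM in sedentary libraries, and Atp5b at 2041, 2168 and 1925 CPM in CD47-KO libraries. Both overlapped with the exercise or sedentary libraries (Atp5b log2 fold change -0.05 ± 0.22 SE against sedentary, edgeR, adjusted p = 0.909, and -0.43 ± 0.22 against exercise, adjusted p = 0.185). Atp5c1, the central stalk, was at 375, 381 and 373 CPM in CD47-KO libraries, below all sedentary libraries, but did not pass (log2 fold change -0.51 ± 0.23 SE, edgeR, adjusted p = 0.129). The following genes were chosen after their values were seen. Atp5d and Atp5e, the small subunits at the foot of that stalk, were called lower against sedentary, with log2 fold changes of -1.36 ± 0.35 (SE, edgeR, adjusted p = 0.0115) and -1.70 ± 0.52 (adjusted p = 0.0287). Atp5d was also called lower against exercise, a call that held in 14 of 30 settings, while Atp5e was not called there. Atp5o, which links the head to the outer stalk, was lower against both groups, with log2 fold changes of -0.85 ± 0.26 (SE) against sedentary (edgeR, adjusted p = 0.0279) and -0.90 ± 0.26 against exercise (adjusted p = 0.0207), but its symbol stands for 2 annotated genes. Of the rest, Atp5h, Atp5j, Atp5j2, Atp5l and Atp5mpl were called in neither comparison, with log2 fold changes between -0.93 and -0.13 against sedentary muscle. The difference between head and ring subunits was not itself tested.

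Across all 10414 expressed genes, the log2 fold change of CD47-KO against sedentary muscle followed transcript GC content (Spearman rho = -0.65 across genes, as a description) and transcript length (rho = 0.35), and among the 44 members these values were -0.32 and 0.32. After the GC correction the members' value for GC content was 0.31, and 0.40 after GC content and length, so among these genes the relation was not removed but turned. Against exercise the members' values were -0.30 as fitted, 0.40 with GC and 0.49 with both. With each library's trend on GC content removed in the same edgeR fit, 7 members were lower in CD47-KO against sedentary muscle, against 5.0% of all genes, and 0 higher, against 4.71%. Of the 14 genes called without the correction, 4 were kept, namely Atp5g1, Atp5g3, Atp5k and Atp5o. The other 3 were Cox5a, Cox7c and Atp5l, whose transcripts have GC contents of 41.6, 38.4 and 39.8%, with log2 fold changes of -1.92 ± 0.33, -1.92 ± 0.30 and -1.81 ± 0.33 (SE). Without sedentary library 6 the GC correction gave 9 lower (5.77% of all genes) and 0 higher (5.72%), and GC content with length gave 9 lower (5.80%) and 3 higher (6.19%). With trends on both GC content and length removed from all libraries, 8 members were lower (4.87% of all genes) and 2, Cox6a1 and Cox8a, higher (4.83%). The median log2 fold change of the members was -0.78 with the GC correction and -0.29 with both corrections, beside -0.10 and -0.05 over all genes.

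Against exercise muscle, the GC correction left 7 members lower, against 4.17% of all genes, and 0 higher, against 5.41%, and 5 of the 14 were kept. With both corrections 9 were lower, against 4.90%, of which 6 were kept, and 1, Cox8a, was higher, against 6.06%. Without sedentary library 6, the GC correction gave 14 lower (6.95% of all genes) and 0 higher (7.56%), and GC content with length gave 12 lower (6.94%) and 1 higher (8.23%). Atp5g3 was called lower in 30 of 30 settings run against each of the sedentary and exercise groups, and Atp5g1 in 28 and 29. Uqcrc1 was called in 30 of 30 settings against exercise and 22 of 30 against sedentary. Within sedentary libraries 1 to 3 alone, 12 members were lower in CD47-KO (13.8% of all genes) and 5 higher (19.2%), and within sedentary libraries 4 to 6 alone, 29 were lower (11.8%) and 0 higher (15.7%). How far GC content, length, the high mitochondrial share or the library sets account for the lower values was not tested beyond these fits.

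**Figure D5:**
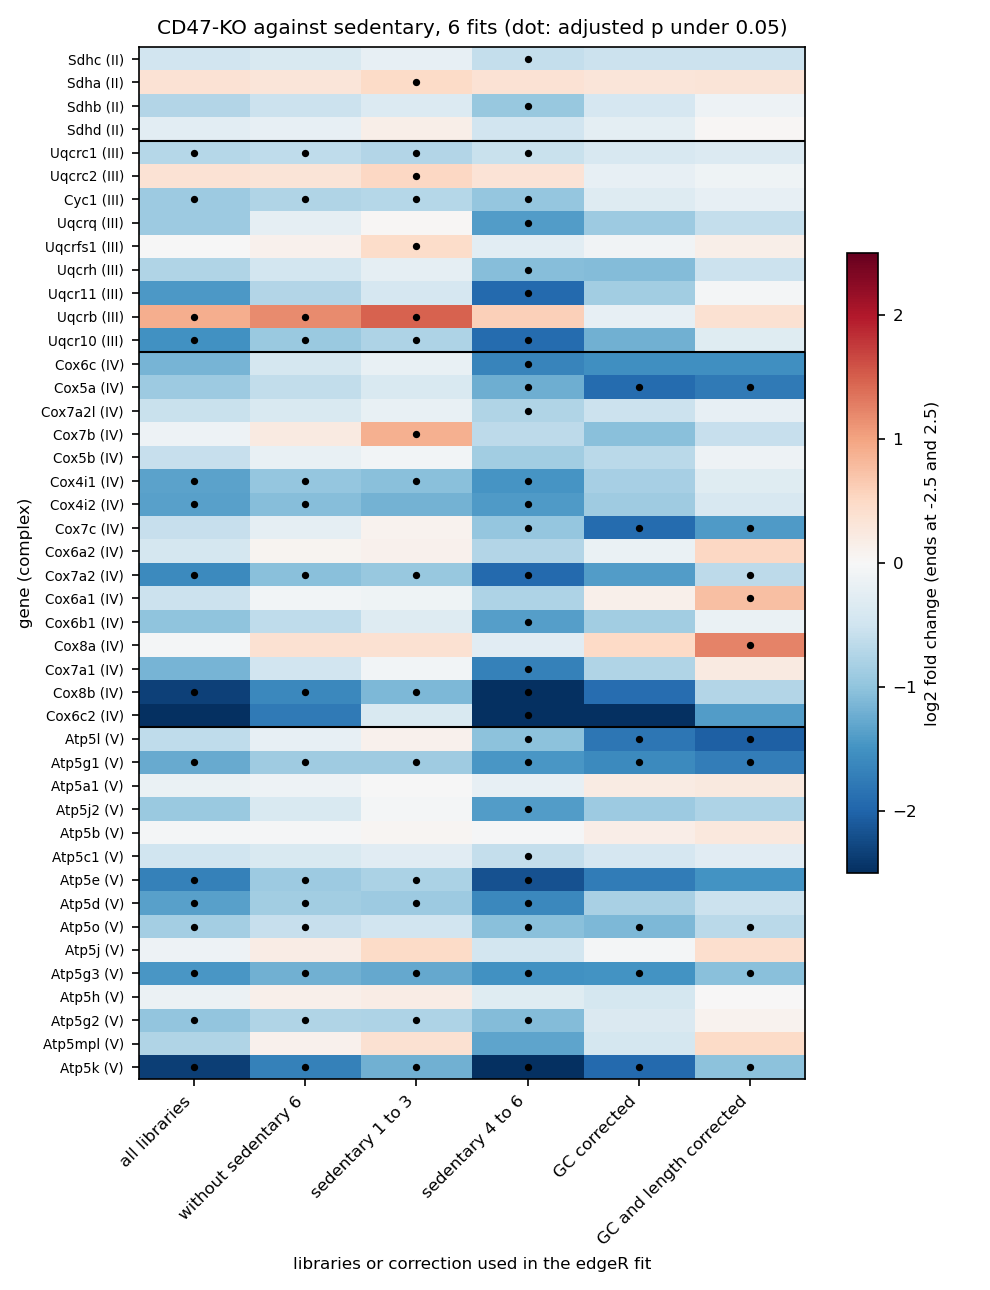
Log2 fold change of CD47-KO over sedentary for each member (rows, by complex) in 6 edgeR fits (columns), with a dot where the adjusted p is under 0.05. The 14 genes called lower with all libraries are the 14 called without sedentary 6, and Atp5g1, Atp5g3, Atp5k and Atp5o carry dots in all 6 fits except that Atp5o has none with sedentary 1 to 3.

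The 6 subunits of complexes III to V measured here that are encoded by mitochondrial DNA all lay above 0 in CD47-KO against sedentary muscle, with a median log2 fold change of 1.15. In edgeR 1 was called higher, against 11.9% of all genes, and 5 without sedentary library 6, against 14.1%. Against exercise all 6 lay above 0 with a median of 1.33, and 2 were called, against 12.2% of all genes. The counts depended on the fit: with the replicate block 6 were called against sedentary and 5 against exercise, with DESeq2 2 and 3, and with limma-voom 3 and 3. The share of all genes called in these other fits is not given. mt-Atp8, an ATP synthase subunit, was at 3216, 3194 and 3650 CPM in CD47-KO libraries, against 462, 779 and 1194 CPM in exercise and 393, 680 and 1677 CPM in sedentary libraries. It did not overlap with either group (log2 fold change 2.06 ± 0.36 SE against sedentary, edgeR, adjusted p = 0.000853, and 2.03 ± 0.36 against exercise, adjusted p = 0.000837). mt-Co2, which carries a copper centre of complex IV, was the second gene called against exercise (log2 fold change 1.19 ± 0.40 SE, edgeR, adjusted p = 0.0434).

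The other 4 did not pass in either comparison in edgeR without the block. mt-Cytb, the cytochrome b of complex III, had log2 fold changes of 1.32 ± 0.51 (SE) against sedentary and 1.47 ± 0.51 against exercise (edgeR, adjusted p = 0.0773 and 0.0511). It passed in DESeq2 (adjusted p = 0.0375 and 0.0158), in limma-voom (0.0306 and 0.0345) and with the block in edgeR (0.000306 and 0.000298). mt-Co1 and mt-Co3, subunits of complex IV, had log2 fold changes of 0.73 ± 0.42 and 0.06 ± 0.54 (SE) against sedentary muscle. mt-Atp6, the proton channel next to the c ring, was at 1516, 1808 and 10772 CPM in CD47-KO libraries, so its mean rested on the third library, and its log2 fold change against sedentary was 2.19 ± 0.91 (SE, edgeR, adjusted p = 0.101). With the GC correction 0 of the 6 were called in edgeR, and their median against sedentary was -0.11. With GC and length they ran from -0.50 (mt-Co3) to 1.81 (mt-Atp6) against sedentary, with mt-Co1 also below 0. Without sedentary library 6, this fit called mt-Cytb (0.83, edgeR, adjusted p = 0.00459) and mt-Atp6 (2.11, adjusted p = 0.0302) higher, against 6.19% of all genes. Against exercise it called mt-Co3 lower (-0.69, edgeR, adjusted p = 0.0142), against 6.94%. Between exercise and sedentary muscle 0 were called in edgeR, with a median of -0.15, and 0 had an unadjusted p under 0.05.

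Of 42 genes on a list of assembly and associated factors for complexes II to V, 41 were tested. Some on the list, such as Cycs, Ndufa4, Usmg5 and Atpif1, are not assembly factors. In CD47-KO against sedentary muscle 10 were lower and 2 higher in edgeR, against 8.75% and 11.9% of all genes, with a median log2 fold change of -0.24. Against exercise 9 were lower and 0 higher, against 8.34% and 12.2% of all genes, with a median of -0.28. An unadjusted p under 0.05 in edgeR was found for 15 of the 41, against 33.1% of all genes. Higd1a, a factor of complex IV and of respiratory supercomplexes, was at 15.5, 22.3 and 18.6 CPM in CD47-KO libraries, against 30.5, 40.6 and 52.5 CPM in exercise and 31, 42 and 62.3 CPM in sedentary libraries, with no overlap. Its log2 fold change was -1.21 ± 0.25 (SE) against sedentary (edgeR, adjusted p = 0.00284) and -1.15 ± 0.25 against exercise (adjusted p = 0.00359). Higd2a, a related factor, had log2 fold changes of -0.99 ± 0.21 and -1.05 ± 0.21 (SE) in the same comparisons (edgeR, adjusted p = 0.00325 and 0.00205). Lrpprc, which stabilises mitochondrial mRNAs, was higher against sedentary at 97.5, 112 and 113 CPM in CD47-KO libraries, against 41, 65.2 and 83.6 CPM in sedentary libraries (log2 fold change 0.75 ± 0.19 SE, edgeR, adjusted p = 0.0106). Ttc19, a factor of complex III, was higher too (0.66 ± 0.21 SE, adjusted p = 0.0362), but had a log2 fold change of 0.13 with the GC correction. Between exercise and sedentary muscle 0 were called in edgeR and 1, the copper chaperone Sco2, had an unadjusted p under 0.05, against 3.70% of all genes (log2 fold change 0.83 ± 0.35 SE, adjusted p = 1).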

How the data were processed

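The values the authors deposited were gene counts, in 1 table of 22798 symbols and 15 libraries. The build GRCm38 and the tools HISAT2 2.0.1, Trimmomatic 0.30 and HTSeq 0.6.1 are named in the submitters' processing notes, without a strand setting. No 2 libraries of a group were copies (chi-square over degrees of freedom at least 78.1). Values of 4, 8 and 12 made up 32.1 to 50.2% of those from 1 to 15, so the deposited counts may not be plain single reads.

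Counts were filtered with filterByExpr (17975 genes), scaled with TMM factors and fitted in edgeR 4.0.16 (R 4.3.3) as a robust quasi-likelihood fit of all 15 libraries, with Benjamini-Hochberg adjustment over all genes and a threshold of 0.05. CPM are TMM-scaled. Standard errors are the fold change over the root of its F statistic. DESeq2 1.42.0 and limma 3.58.1 were alternatives. GC content and length came from the longest transcript in GENCODE M21, and the correction took a lowess curve (span 0.3) of log2 CPM, with a prior count of 2, as an offset. Isoform ratios used a pseudocount of 0.5. The fit was tested on simulated counts. The genes, lists and tests were chosen with earlier results of these data known. All complex II genes, the isoform pairs and the mitochondrially encoded subunits are named by rule. So are the genes with the smallest p per complex and comparison (up to 2 in each direction) and the leading assembly and associated factors. Other named genes were chosen after their values were seen. Exercise and sedentary libraries of the same title number had correlations of deviations of 0.273 to 0.539 over 6 pairs. Other numbers of the same set (1 to 3 or 4 to 6) had a median of 0.366 and numbers of the other set -0.411. Other numbers of a set thus resembled each other to a like degree, so title numbers followed the set and were not shown to mark pairs. The deposited descriptions number exercise libraries 4 to 6 otherwise than their titles. The block by title number changed no call of a member between exercise and sedentary muscle.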

Additional observations from a re-analysis of the deposited data

Results flagged for a closer look

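In a gap test at the 95% level for 6 libraries, 23 of the 88 groups tested (each member in the exercise and in the sedentary group) held a library far from its group, where chance flags about 1 in 20. All 23 were sedentary library 6, and in each the value was the highest of the group. In complex III these were Uqcr10 at 630.8, Uqcr11 at 426 and Uqcrq at 844.2 CPM. In complex IV they were Cox4i1 at 981.8, Cox5b at 581.5, Cox6a2 at 2018, Cox6b1 at 576.7, Cox6c at 650.6, Cox6c2 at 20.73, Cox7a1 at 483.3, Cox7a2 at 307.1, Cox8a at 51.52 and Cox8b at 837.3 CPM. In complex V they were Atp5d at 724.4, Atp5e at 924.9, Atp5g1 at 842, Atp5g2 at 331.6, Atp5h at 388.2, Atp5j2 at 657.4, Atp5k at 481.2, Atp5l at 535.6, Atp5mpl at 405.2 and Atp5o at 789.2 CPM. No complex II gene was among them. The same library had a mitochondrial share of 18.2% of its counts and a TMM factor of 0.795, and what sets it apart was not tested.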

How the results depend on the processing

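In every setting run, 0 members were called between exercise and sedentary muscle. In CD47-KO against sedentary, the number lower (14) was 8 with only the groups compared, 7 with the GC correction (9 without sedentary library 6), 8 with GC and length (9 without it), 29 with title numbers 4 to 6, and 3 to 17 when 1 library was left out. The number higher (1) was 0, 0 (0), 2 (3), 0 and 0 to 1 in the same settings, 5 with title numbers 1 to 3 and 2 with the replicate block, which left 12 lower. Of all genes, 5.0% were lower with the GC correction, 4.87% with GC and length and 11.8% with title numbers 4 to 6. With title numbers 1 to 3, 19.2% of all genes were higher. Against exercise, the number lower (14) was 7 with the GC correction, 9 with GC and length, 26 with title numbers 4 to 6, 12 with the block and 5 to 17 without 1 library. The number higher (1) was 0 with the GC correction, with or without sedentary library 6, 2 with the block, 2 with title numbers 1 to 3, 0 with 4 to 6 and 0 to 1 without 1 library. Of all genes, 4.17% were lower with the GC correction, 4.90% with GC and length and 10.7% with title numbers 4 to 6. With title numbers 1 to 3, 19.2% of all genes were higher. Shares of all genes are not given for the block, for only the groups compared or for most fits without 1 library. CD47-KO title numbers did not pair with the others (correlations -0.192 to 0.309). The sign turned for Uqcrb with the GC correction (-0.21 and -0.23, or -0.0193 and -0.21 without sedentary library 6, against sedentary and exercise) and for Atp5g2 against sedentary with GC and length (0.0807). Without 1 library, log2 ratio differences ran from -2.31 to -1.74 (Cox8b to Cox8a, CD47-KO against sedentary), -2.35 to -1.79 (against exercise) and -0.0814 to 0.18 (exercise against sedentary). They ran from 0.28 to 0.33 (Atp5g1 to Atp5g3, CD47-KO against exercise), -0.11 to 0.00 (exercise against sedentary), -0.61 to -0.45 (Cox4i2 to Cox4i1, exercise against sedentary; -0.5432 with the replicate block, adjusted p = 0.0938) and -0.29 to 0.25 (CD47-KO against sedentary). Cox6a2 to Cox6a1 ran from -0.0443 to 0.11, -0.0252 to 0.0894 and -0.0882 to 0.0719 for CD47-KO against sedentary and exercise and for exercise against sedentary. These ranges do not cover a split by title numbers 1 to 3 and 4 to 6, with which the sedentary Cox8b to Cox8a ratio moved. With 2 libraries against 6, adjusted p cannot reach the threshold. Apart from the construction of these settings, the causes were not tested. With the block in that family, Cox8b to Cox8a (-1.95 and -1.99) and Atp5g1 to Atp5g3 against exercise (0.30) had an adjusted p of 0.0595. The settings added after seeing the data were those that joined a correction with leaving out sedentary library 6, and this pairing. Depth did not limit most members, but Cox4i2 and Cox6c2 lie near 1 CPM in CD47-KO libraries.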
